A study of Homo sapiens with 12 samples.

Results

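Homologous recombination, the Fanconi anaemia pathway and the damage signalling around them were followed through 35 listed genes in U-87 MG, a long-established cell line from a human glioma. A gene was represented by the probe set with the highest mean level among those that the array's probe table assigns to that gene alone. Of the 35 genes, 31 were measured in this way, out of 19775 genes in all. RBBP8, BRCA2, FANCA and FANCD2 had no such probe set and were not analysed here.

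Homologous recombination copies lost sequence from a sister chromatid: broken ends are trimmed, a strand exchange filament is built with the help of the BRCA proteins and other mediators, and the joined molecules are then taken apart by helicases and nucleases. The Fanconi pathway detects stalled forks at crosslinks and other bulky lesions, and its core complex attaches ubiquitin to the FANCD2-FANCI pair. Temozolomide (TMZ), the methylating drug given against glioma, leaves lesions that can collapse replication forks, and this repair is known to act on the breaks that follow.

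RNA came from cells stably transfected with a short hairpin RNA against p105, the NFKB1 product from which the NF-kB subunit p50 is made (shp105), or with a control hairpin (shControl). Both lines received 100 uM TMZ or the vehicle DMSO for 16 h. This gave 4 groups of 3 arrays: shControl_DMSO, shControl_TMZ, shp105_DMSO and shp105_TMZ. Whether a line was 1 clone or a pool is not given in the sources used here. Levels below are log2 values per probe set, listed from replicate 1 to replicate 3, and are not comparable between probe sets. Differences are log2 differences of group means with the standard error (SE) of limma's fit. A gene was called where its Benjamini-Hochberg adjusted p over all 19775 genes was under 0.05. Where groups are said not to overlap, this only describes their 3 arrays each. Many members without a call did not overlap either, and the share over all genes was not counted, so it is no sign of a difference by itself. The replicates are labelled biological, but whether they came from separate transfections is not given in the sources used here, so a p-value here reflects the spread among these arrays, which may be technical.

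Promoter sequence from RefSeq (GRCh38.p14), from 250 bases before to 50 bases after a transcription start, was found for 32 of the 35 listed genes, in 41 windows. FANCI, NBN and RAD54B were not among them. The windows were searched on both strands for 3 elements of cell-cycle promoters. An E2F-type site (TTTCCCGC, TTTCGCGC, TTTGCCGC or TTTGGCGC) was found in 17.1% of the members' windows, those of FANCA, FANCC, FANCD2, GEN1, RMI1, TOPBP1 and XRCC2, and in 3.31% of all 35116 windows. The CCAAT box was found in 41.5% of the members' windows and 34.6% of all. A CHR-type element (TTTGAA or TTTAAA) was found in 9.76% of the members' windows and 24% of all. Matches of different motifs can overlap, and a match describes the letters and not a bound site. The windows below belong to BLM and CHEK2, which passed the test in the TMZ response, and to PALB2 and RAD51AP1, which were lower in shp105 cells under both treatments. BLM lies on the plus strand at chr15:90717096-90717395, CHEK2 on the minus strand at chr22:28741771-28742070, PALB2 on the minus strand at chr16:23641261-23641560 and RAD51AP1 on the plus strand at chr12:4538640-4538939. Capitals mark the CCAAT box, read as ATTGG where it lies on the opposite strand, and in BLM also the CHR-type TTTAAA.
BLM: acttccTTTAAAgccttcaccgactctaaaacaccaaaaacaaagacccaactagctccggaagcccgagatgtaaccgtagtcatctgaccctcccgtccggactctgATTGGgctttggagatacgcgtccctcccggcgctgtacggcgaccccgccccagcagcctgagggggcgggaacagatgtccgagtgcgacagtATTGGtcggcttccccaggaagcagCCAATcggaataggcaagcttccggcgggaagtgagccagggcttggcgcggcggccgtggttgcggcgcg
CHEK2: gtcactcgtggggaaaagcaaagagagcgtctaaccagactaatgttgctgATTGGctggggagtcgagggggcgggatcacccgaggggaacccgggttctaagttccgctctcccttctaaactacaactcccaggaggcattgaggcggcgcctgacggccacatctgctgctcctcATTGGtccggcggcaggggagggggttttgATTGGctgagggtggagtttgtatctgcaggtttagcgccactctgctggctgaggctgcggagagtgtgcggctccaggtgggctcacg
PALB2: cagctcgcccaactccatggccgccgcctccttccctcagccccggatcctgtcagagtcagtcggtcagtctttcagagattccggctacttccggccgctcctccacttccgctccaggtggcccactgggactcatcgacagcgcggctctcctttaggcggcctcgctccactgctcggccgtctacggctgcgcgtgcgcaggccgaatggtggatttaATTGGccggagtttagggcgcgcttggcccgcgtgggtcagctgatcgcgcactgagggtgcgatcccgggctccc
RAD51AP1: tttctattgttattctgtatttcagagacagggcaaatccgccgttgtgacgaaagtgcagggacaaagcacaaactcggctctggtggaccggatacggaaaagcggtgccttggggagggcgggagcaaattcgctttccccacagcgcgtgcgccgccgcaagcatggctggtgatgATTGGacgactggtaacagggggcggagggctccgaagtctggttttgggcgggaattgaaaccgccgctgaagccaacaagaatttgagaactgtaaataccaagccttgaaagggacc
The BLM and CHEK2 windows each held 3 CCAAT boxes, and the PALB2 and RAD51AP1 windows 1 each. None of these 4 windows held an E2F-type site in the forms searched.

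NFKB1, the targeted gene, read 7.40, 7.23 and 7.34 in shControl_DMSO, 7.50, 7.45 and 7.30 in shControl_TMZ, 7.17, 7.27 and 7.16 in shp105_DMSO, and 7.14, 7.22 and 7.14 in shp105_TMZ. The lines overlapped with DMSO (-0.12, SE 0.07, adjusted p = 0.260) and did not overlap with TMZ (-0.25, SE 0.07, adjusted p = 0.0204). CDKN1A, the cell-cycle inhibitor induced by p53, rose with TMZ by 0.88 (SE 0.06, adjusted p = 4.47e-05) in shControl and by 0.92 (SE 0.06, adjusted p = 2.80e-05) in shp105 cells. Over the 12 arrays the glioma and mesenchymal markers ran from 14.69 to 14.84 for VIM, 12.58 to 13.01 for CD44, 4.45 to 5.77 for NES, 4.94 to 5.36 for GFAP and 4.90 to 5.32 for SOX2. The sixth of them, the astrocyte marker S100B (3.25 to 3.79), and the leukocyte marker PTPRC (2.66 to 3.58) lay in the range of 27 bacterial control probe sets (2.33 to 4.30). Above that range on all arrays were 5 of 6 glioma and mesenchymal markers, 3 of 5 leukocyte, 1 of 3 endothelial and 2 of 4 epithelial markers, and all 31 measured members. Since CD3E and CD79A, genes of T and B cells, were also above it (5.51 to 6.03 and 5.93 to 6.18), a level above it does not by itself show expression, also for NES, GFAP and SOX2. With TMZ, 0 genes of these marker lists were called in either line. Between the lines, 0 leukocyte and 0 endothelial markers were called under either treatment, while 1 glioma and 1 epithelial marker were lower under each and 1 epithelial marker was higher with DMSO. Of all genes, 11.6% were lower and 8.34% higher with DMSO, and 11% lower and 10.1% higher with TMZ. Lists this short do not tell such counts from those shares. The hybridization spike-ins, added in fixed amounts before hybridization, moved with the groups: their mean was 10.63 (SD 0.05) in shControl_DMSO, 10.95 (SD 0.09) in shControl_TMZ, 11.13 (SD 0.10) in shp105_DMSO and 11.32 (SD 0.13) in shp105_TMZ. The GAPDH 3' minus 5' signal, a sign of RNA integrity, ran from 0.22 to 0.27, 0.27 to 0.32, 0.33 to 0.40 and 0.37 to 0.44 in the same order. That of ACTB was larger and did not rise in this order. It ran from 2.95 to 3.07, 2.78 to 2.94, 2.94 to 3.14 and 3.01 to 3.15. The part of these signals in the results was not tested. Values from a fit that also holds each array's mean spike-in level, called a spike-in covariate below, stand beside the results. Since that level moved with the groups, this fit separates group and level poorly. A call lost in it can reflect lost precision, so the differences are to be read beside the adjusted p.

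**Figure D1:**
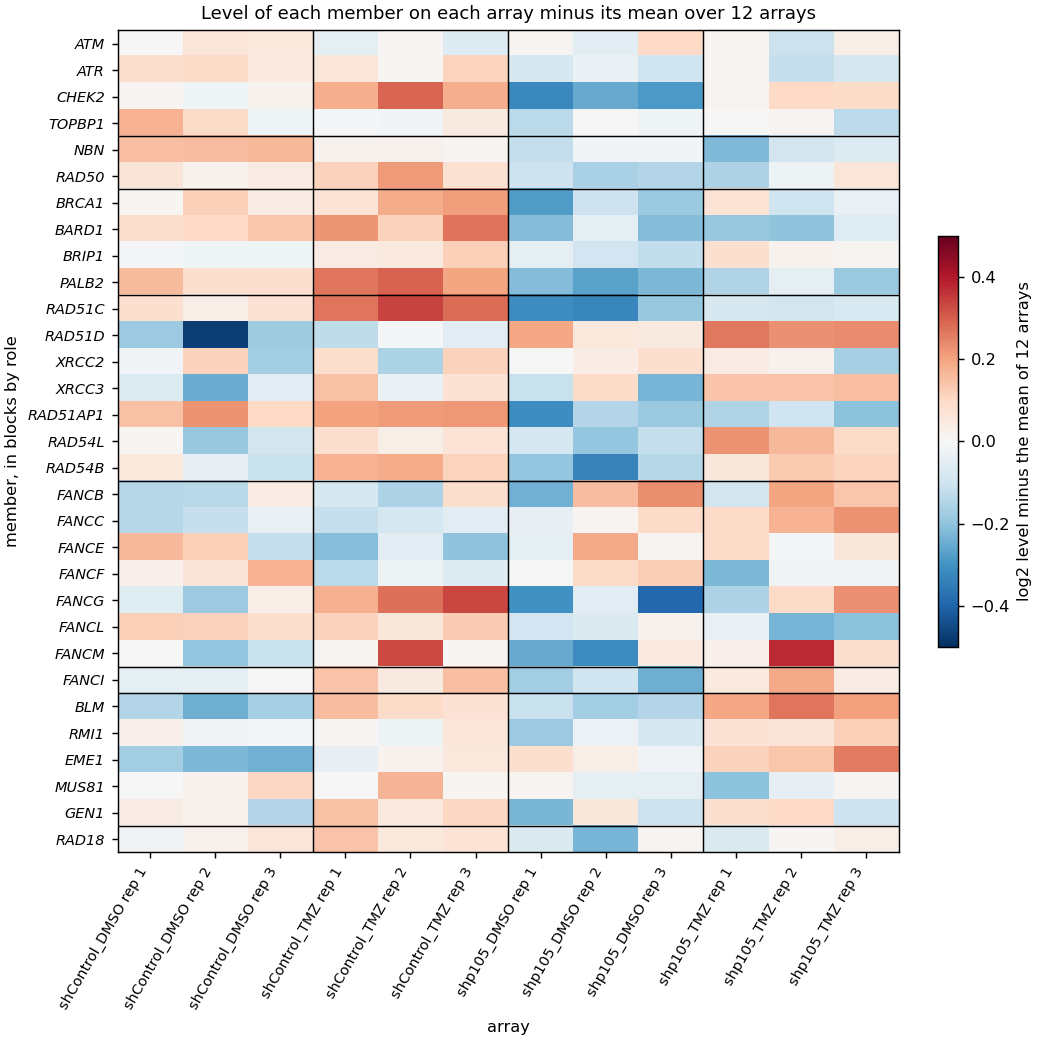
Log2 level of each of the 31 measured members on each of the 12 arrays (columns, 3 per group) minus that member's mean over the 12 arrays, in blocks by role. Colours run from -0.5 (blue) to 0.5 (red), and the largest deviation is 0.47. BLM is highest on the TMZ arrays of both lines, and PALB2, RAD51C and RAD51AP1 are lower on the 6 arrays of shp105 cells than on the 6 of shControl cells.

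In shControl cells, TMZ raised BLM, the helicase that with RMI1 takes apart double Holliday junctions, and no other of the 31 members passed. BLM read 7.95, 7.85 and 7.93 with DMSO and 8.25, 8.19 and 8.16 with TMZ. Every TMZ array lay above every DMSO array, and the difference was 0.29 (SE 0.05, 1.22-fold, adjusted p = 0.0389). This is 1 of 31 members higher, beside 0.253% of all genes, and 0 lower, beside 0.116%. Over the 31 members 24 differences were positive, with a median of 0.09, against 9652 of 19775 positive and a median of -0.0031 over all genes. An unadjusted p under 0.05 was found for 14 members, and for 2180 of all genes. The BLM call was lost when any array but shp105_TMZ replicate 2 was left out (adjusted p = 0.0570 to 0.199, difference 0.26 to 0.31). A fit of the 6 shControl arrays alone also lost it (adjusted p = 0.155), as did a spike-in covariate (0.28, adjusted p = 0.818).

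In shp105 cells, TMZ raised BLM again, together with CHEK2, the checkpoint kinase that ATM activates at breaks, and RAD54B, a DNA translocase of strand exchange. BLM read 7.98, 7.92 and 7.95 with DMSO and 8.29, 8.36 and 8.30 with TMZ, a difference of 0.37 (SE 0.05, 1.29-fold, adjusted p = 0.00810). CHEK2 read 7.80, 7.87 and 7.83 with DMSO and 8.13, 8.22 and 8.21 with TMZ, a difference of 0.36 (SE 0.05, 1.28-fold, adjusted p = 0.00997). RAD54B read 8.57, 8.43 and 8.62 with DMSO and 8.82, 8.89 and 8.87 with TMZ, a difference of 0.32 (SE 0.06, 1.25-fold, adjusted p = 0.0422). For all 3 genes the groups did not overlap. CHEK2 has near-identical pseudogene copies, whose transcripts its probe set may also read. These are 3 of 31 members higher, beside 0.647% of all genes, and 0 lower, beside 0.217%. Over all genes the split was 128 higher and 43 lower, which turned to 94 and 131 with median centring and to 145 and 95 with quantile normalization. The members' median was 0.12 against 0.014 over all genes, with 24 of 31 positive. The RAD54B call was lost when any array but shControl_DMSO replicate 1 was left out (adjusted p = 0.0539 to 0.134), and that of CHEK2 without shp105_DMSO replicate 1 (0.34, adjusted p = 0.0501). RAD54B was also lost with median centring, with array weights or the replicate number in the fit, and among all probe sets (adjusted p = 0.0960). With a spike-in covariate BLM was 0.36 (adjusted p = 0.121), CHEK2 0.37 (0.118) and RAD54B 0.28 (0.313). With only the 6 arrays of shp105 cells in the fit, the adjusted p of these 3 genes ran from 0.146 to 0.208.

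**Figure D2:**
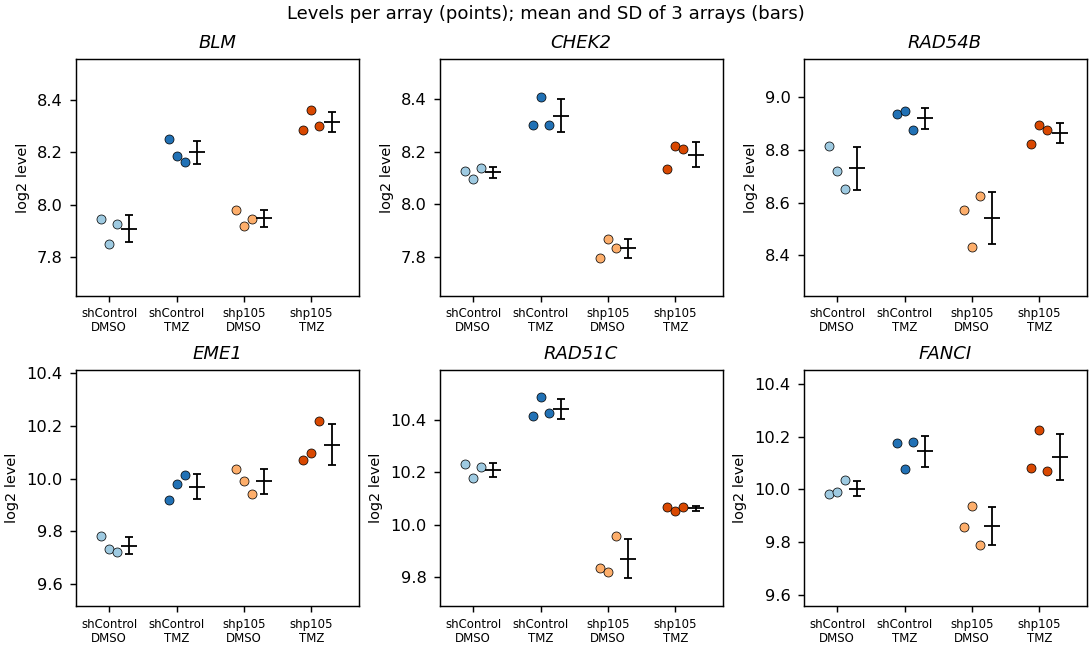
Log2 levels of BLM, CHEK2, RAD54B, EME1, RAD51C and FANCI by group. Points are the 3 arrays of a group, and the bar beside them is their mean with the SD; each panel spans the same height on its own scale. In each panel and each line the TMZ arrays lie above the DMSO arrays.

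The remaining damage-signalling members were close to 0 in both responses with the probe sets used. ATM, the kinase that answers double-strand breaks, had differences of -0.07 (95% interval -0.20 to 0.05) in shControl and -0.04 (-0.17 to 0.08) in shp105 cells. ATR, the kinase that answers single-stranded DNA, had -0.02 (-0.13 to 0.10) and 0.01 (-0.10 to 0.13). TOPBP1, which activates ATR, had -0.07 (-0.22 to 0.07) and 0.01 (-0.13 to 0.15). Dimmer ATM probe sets ran from -0.23 to 0.47 in shControl and from -0.05 to 0.17 in shp105 cells. Dimmer ATR ones had 0.03 and -0.09 in shControl and 0.13 and 0.21 in shp105 cells. None of these passed among all probe sets (smallest adjusted p = 0.117, ATM in shControl cells). CHEK2 in shControl cells read 8.13, 8.10 and 8.14 with DMSO and 8.30, 8.41 and 8.30 with TMZ. Those groups did not overlap, but the difference of 0.21 (SE 0.05, adjusted p = 0.137) did not pass.

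Break sensing and the BRCA complexes held no call in either response. NBN and RAD50 belong with MRE11 to the complex that binds broken ends. NBN had -0.14 (SE 0.05, adjusted p = 0.366) and -0.08 (SE 0.05, adjusted p = 0.510), and RAD50 had 0.09 (SE 0.06, adjusted p = 0.627) and 0.10 (SE 0.06, adjusted p = 0.472), in shControl and shp105 cells. BRCA1, its ubiquitin-ligase partner BARD1, the helicase BRIP1 and PALB2, which bridges BRCA1 and BRCA2, all had positive values in both lines, from 0.09 to 0.14 in shControl and from 0.01 to 0.17 in shp105 cells. The smallest adjusted p among these 4 was 0.353 and 0.224. Those values come from the probe sets used. Dimmer BARD1 probe sets had 0.28 and 0.10 in shControl and 0.36 and 0.20 in shp105 cells. A dimmer BRCA1 probe set had 0.22 in shControl and 0.29 in shp105 cells, and a dimmer BRIP1 one 0.01 and 0.13. None of these passed among all probe sets (smallest adjusted p = 0.110, BRCA1 in shp105 cells).

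All 7 strand exchange genes had positive values in shControl cells (median 0.19, smallest adjusted p = 0.108), and 6 of 7 in shp105 cells (median 0.19), where RAD54B was called. RAD54L, the other RAD54 translocase, read 6.98, 6.87 and 6.95 with DMSO and 7.29, 7.23 and 7.16 with TMZ in shp105 cells. The groups did not overlap, and the difference of 0.29 (SE 0.06, adjusted p = 0.0504) fell just short of a call. RAD51C, a mediator of strand exchange, read 10.23, 10.18 and 10.22 with DMSO and 10.42, 10.48 and 10.42 with TMZ in shControl cells, and 9.84, 9.82 and 9.96 with DMSO and 10.07, 10.05 and 10.07 with TMZ in shp105 cells. Neither pair of groups overlapped, and neither difference passed (0.23, SE 0.05, adjusted p = 0.108, and 0.19, SE 0.05, adjusted p = 0.0985). XRCC2, whose probe set is of the kind that can cross-hybridize, had the negative value of this group in shp105 cells (-0.07, 95% interval -0.28 to 0.13).

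The Fanconi genes went both ways without a call. The core-complex genes and the anchor FANCM ran from -0.21 (FANCE) to 0.33 (FANCG) in shControl cells and from -0.16 (FANCF) to 0.33 (FANCM) in shp105 cells. FANCB, a dim probe set that ran from 5.17 to 5.64 over all arrays, had 0.03 in both lines (95% interval -0.24 to 0.30 in shControl and -0.23 to 0.30 in shp105 cells). The other FANCB probe sets, also dim, had 0.31, 0.14 and 0.25 in shControl and 0.09, 0.26 and 0.40 in shp105 cells. None of these passed among all probe sets (smallest adjusted p = 0.250). FANCF, an adaptor of the core complex, was -0.16 in both lines (SE 0.07, adjusted p = 0.419 and 0.294), with no overlap of its groups in either line. Its second, dimmer probe set had -0.05 in shControl cells and the opposite sign, 0.14, in shp105 cells. FANCI, the partner of FANCD2, read 9.98, 9.99 and 10.04 with DMSO and 10.18, 10.08 and 10.18 with TMZ in shControl cells, and 9.86, 9.94 and 9.79 with DMSO and 10.08, 10.22 and 10.07 with TMZ in shp105 cells. These groups did not overlap, while the differences of 0.14 (SE 0.06, adjusted p = 0.416) and 0.26 (SE 0.06, adjusted p = 0.0661) did not pass. RAD18, the ligase that ubiquitinates PCNA at stalled forks, had 0.07 (adjusted p = 0.772) and 0.08 (adjusted p = 0.566).

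Among the junction-processing genes other than BLM, EME1, the partner of the nuclease MUS81, had 0.22 (SE 0.06, adjusted p = 0.149) and 0.14 (SE 0.06, adjusted p = 0.240). MUS81 itself had 0.02 (95% interval -0.13 to 0.17) and -0.05 (-0.20 to 0.10), and the resolvase GEN1 0.13 (-0.06 to 0.31) and 0.12 (-0.06 to 0.30). RMI1 had 0.01 (-0.10 to 0.13) in shControl cells. In shp105 cells it had 0.18 (0.07 to 0.30, adjusted p = 0.125).

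The responses of the lines rest on different arrays. Across the 31 members they correlated with a Pearson r of 0.82, and 27 members had the same sign in both. Across all genes r was 0.33, and 61.5% had the same sign. Members are not independent replicates, and all 12 arrays share one normalization, so these values are a description.

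**Figure D3:**
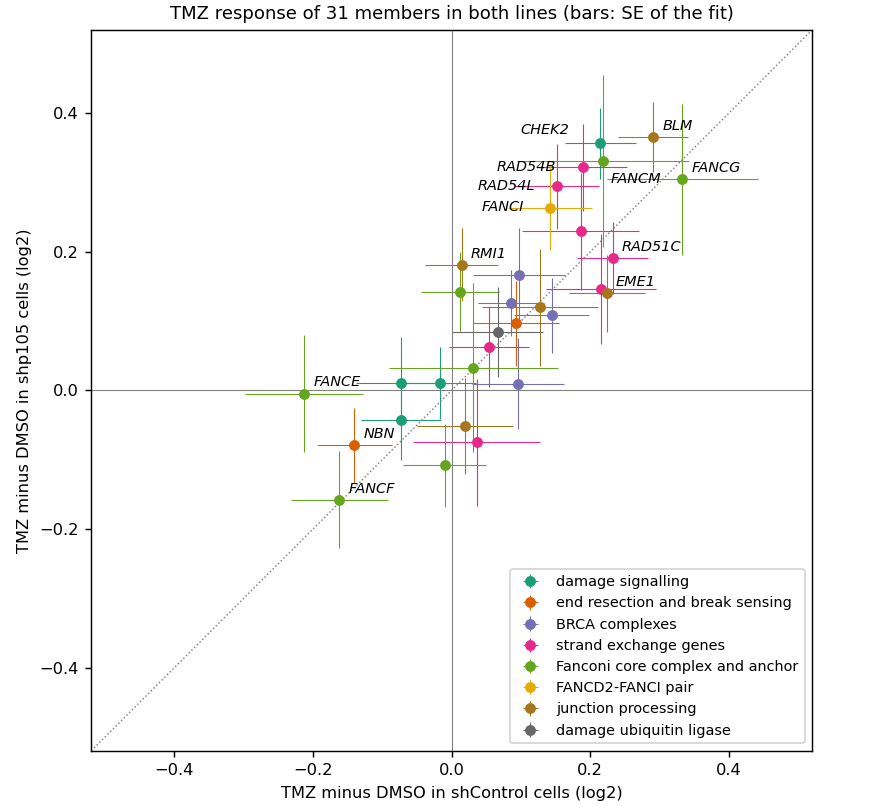
TMZ minus DMSO (log2) of the 31 measured members in shControl cells (horizontal) and shp105 cells (vertical), coloured by role. Bars are the SE of the fit and the dotted line marks equal responses; BLM, at 0.29 and 0.37, is called in both lines, and 27 of the 31 points have the same sign in both.

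Averaging the responses of both lines in the same fit, a contrast added after the single responses had been seen, gave 8 of 31 members higher, beside 1.84% of all genes, and 0 lower, beside 1.53%. Members of the other lists were called in this contrast too, with their counts given beside those lists. The 8 members were BLM (0.33, SE 0.04, adjusted p = 0.000817), CHEK2 (0.29, SE 0.04, adjusted p = 0.00199), RAD51C (0.21, SE 0.04, adjusted p = 0.0123), RAD54B (0.26, SE 0.04, adjusted p = 0.0133), RAD54L (0.22, SE 0.04, adjusted p = 0.0216), FANCI (0.20, SE 0.04, adjusted p = 0.0292), EME1 (0.18, SE 0.04, adjusted p = 0.0301) and FANCG (0.32, SE 0.08, adjusted p = 0.0463). FANCG is a core-complex subunit whose shp105 arrays overlapped between the treatments (8.02, 8.27 and 7.94 against 8.17, 8.42 and 8.55). The 8 genes thus come from damage signalling, strand exchange, the Fanconi pathway and junction processing. The median was 0.10 over the members and 0.0054 over all genes, whose split of 363 higher and 302 lower became 290 and 507 with median centring. BLM, CHEK2, RAD51C and RAD54B stayed called whichever array was left out. RAD54L was lost without shControl_TMZ replicate 1 or 3, shControl_DMSO replicate 2 or shp105_DMSO replicate 2 (adjusted p = 0.0516 to 0.0605). FANCI was lost for 7 of the 12 arrays (0.0528 to 0.0761), EME1 for 8 (0.0567 to 0.0787) and FANCG for 10 (0.0617 to 0.117). With the probe sets of a gene averaged, FANCG was lost, and BARD1 and BRCA1 were gained. With a spike-in covariate 0 members were called, and the median was 0.11.

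The test of the difference between the responses asks whether a member answered the drug differently where p105 was targeted. It called 0 of 31 members, beside 0% of all genes, by limma's fit. An unadjusted p under 0.05 was found for 1 member and for 1266 of all genes. That member was RMI1, with 0.17 (SE 0.07, 95% interval 0.00 to 0.33, unadjusted p = 0.0467, adjusted p = 0.775). RMI1 read 10.03, 9.98 and 9.99 with DMSO and 10.01, 9.97 and 10.06 with TMZ in shControl cells, against 9.82, 9.97 and 9.92 and 10.07, 10.06 and 10.12 in shp105 cells. CHEK2 had a difference of 0.14 (95% interval -0.02 to 0.30) and BLM one of 0.08 (-0.08 to 0.23). For the 31 members the SE of this difference ran from 0.07 to 0.17.

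Between the lines with DMSO, shp105 cells held less of 7 members and more of 2. The 7 were the BRCA-complex genes PALB2, BARD1 and BRCA1, the strand-exchange genes RAD51AP1 and RAD51C, and CHEK2 and NBN. RAD51D, a strand exchange gene, and EME1 were higher. This is 7 of 31 members lower, beside 11.6% of all genes, and 2 of 31 higher, beside 8.34%. The members' median difference was -0.10 against -0.015 over all genes, with 24 of 31 negative. With TMZ 5 members were lower, beside 11% of all genes, and 2 higher, beside 10.1%, with a median of -0.05 against -0.0078. PALB2, RAD51C, RAD51AP1 and BARD1 were lower under both treatments, FANCL was called lower with TMZ, RAD51D was higher under both, and FANCC was called higher with TMZ. These 2 comparisons share no array. Because RNA of whole cultures was measured, fewer cells with a transcript and less of it per cell cannot be told apart.

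PALB2 read 9.44, 9.36 and 9.36 in shControl_DMSO and 9.06, 9.01 and 9.05 in shp105_DMSO, a difference of -0.34 (SE 0.05, 0.788-fold, adjusted p = 0.000765). With TMZ it read 9.55, 9.57 and 9.47 against 9.13, 9.23 and 9.09, a difference of -0.38 (SE 0.05, 0.769-fold, adjusted p = 0.000362). All 6 shp105 arrays lay below all 6 shControl arrays. BARD1 read 9.52, 9.54 and 9.58 against 9.22, 9.39 and 9.22 with DMSO (-0.27, SE 0.07, adjusted p = 0.0134) and 9.66, 9.55 and 9.71 against 9.25, 9.24 and 9.38 with TMZ (-0.35, SE 0.07, adjusted p = 0.00232). Its other probe sets had the same sign with smaller values, -0.10 and -0.24 with DMSO and -0.02 and -0.14 with TMZ, and none of these passed. BRCA1 ran from 9.66 to 9.77 in shControl_DMSO and from 9.37 to 9.55 in shp105_DMSO (-0.25, SE 0.07, adjusted p = 0.0221). With TMZ its difference was -0.18 (SE 0.07, adjusted p = 0.0883), without a call. The DMSO call of BARD1 was lost without shControl_DMSO replicate 3, shp105_DMSO replicate 1 or shp105_DMSO replicate 3 (adjusted p = 0.0501 to 0.0574). That of BRCA1 was lost without shControl_DMSO replicate 2 or 3 or shp105_DMSO replicate 1 or 3 (adjusted p = 0.0523 to 0.0943).

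RAD51AP1, which promotes the forming of joint molecules, read 10.02, 10.10 and 9.98 against 9.57, 9.73 and 9.69 with DMSO (-0.37, SE 0.06, 0.773-fold, adjusted p = 0.000663). With TMZ it read 10.08, 10.09 and 10.09 against 9.73, 9.78 and 9.67 (-0.36, SE 0.06, 0.778-fold, adjusted p = 0.000771). RAD51C, from the arrays given above, differed by -0.34 (SE 0.05, 0.791-fold, adjusted p = 0.000567) with DMSO and by -0.38 (SE 0.05, 0.769-fold, adjusted p = 0.000233) with TMZ. For both genes the 6 shp105 arrays were below the 6 shControl arrays. The second RAD51C probe set gave -0.19 and -0.06, neither of which passed. RAD51D went the other way: it read 6.41, 6.12 and 6.41 against 6.78, 6.64 and 6.64 with DMSO (0.37, SE 0.08, 1.30-fold, adjusted p = 0.00555). With TMZ it read 6.46, 6.59 and 6.54 against 6.86, 6.82 and 6.83 (0.30, SE 0.08, 1.24-fold, adjusted p = 0.0169). Its shp105 arrays were all above its shControl arrays, of which shControl_DMSO replicate 2 was lowest, and without that array the DMSO difference was 0.28 (adjusted p = 0.0138). The TMZ call was lost without shControl_TMZ replicate 1 (0.27, adjusted p = 0.0697). RAD54B had -0.19 (SE 0.06, adjusted p = 0.0574) with DMSO, and XRCC2, XRCC3 and RAD54L had values between -0.05 and 0.10 under both treatments.

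**Figure D4:**
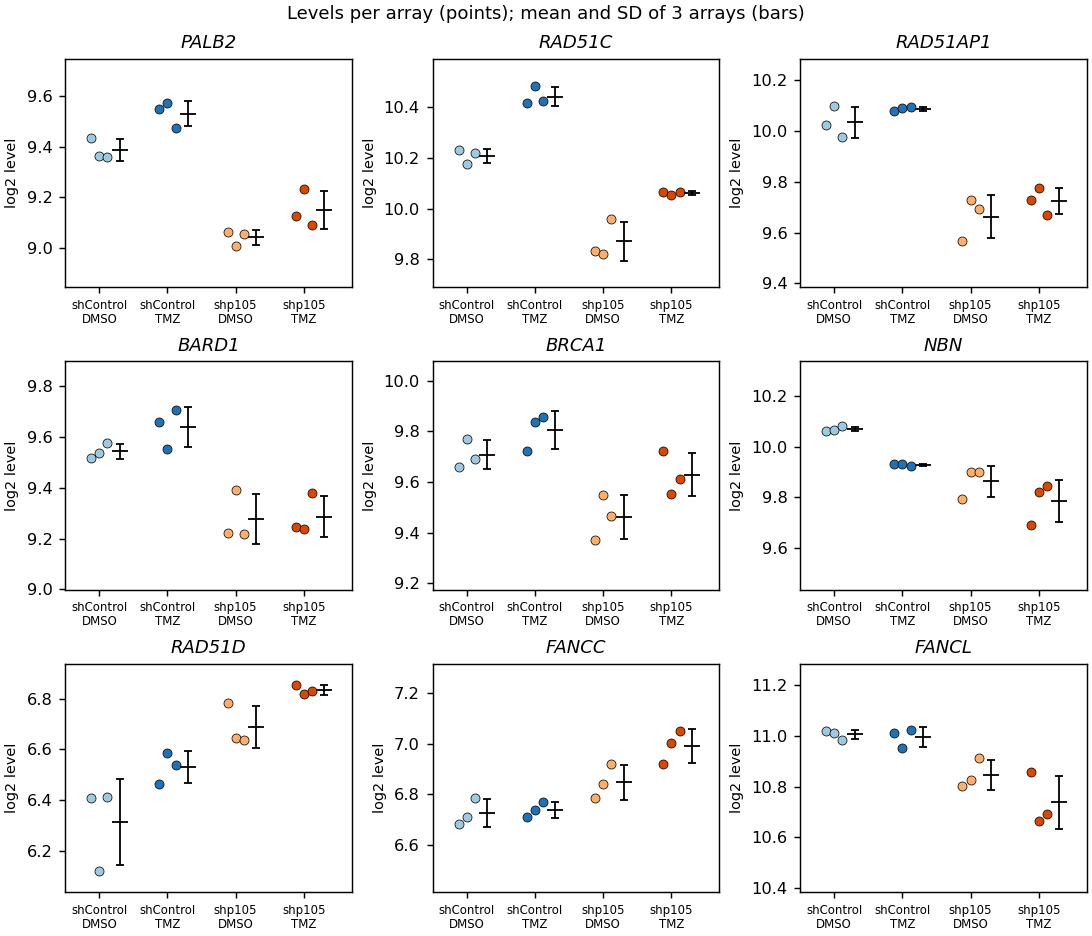
Log2 levels of 9 members by group, with points for the 3 arrays and a bar for their mean and SD; each panel spans the same height on its own scale. PALB2, RAD51C, RAD51AP1 and BARD1 are lower on all shp105 arrays than on the shControl arrays of the same treatment, RAD51D is higher, and FANCC and FANCL separate fully with TMZ.

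CHEK2 read 8.13, 8.10 and 8.14 in shControl_DMSO and 7.80, 7.87 and 7.83 in shp105_DMSO (-0.29, SE 0.05, 0.818-fold, adjusted p = 0.00171). With TMZ the groups still did not overlap, but the difference of -0.15 (SE 0.05, adjusted p = 0.0644) did not pass. The test between both line differences is that of the TMZ responses given above (0.14, adjusted p = 0.797). The DMSO difference of CHEK2 and its rise with TMZ in shp105 cells use the same shp105_DMSO arrays. NBN ran from 10.06 to 10.08 in shControl_DMSO and from 9.79 to 9.90 in shp105_DMSO (-0.21, SE 0.05, adjusted p = 0.0188). Only 3 of its 5 probe sets had that sign, and the next brightest had 0.19 and 0.13. The NBN call was lost without shControl_DMSO replicate 3 (adjusted p = 0.0585) or shp105_DMSO replicate 1 (adjusted p = 0.0828). RAD50, with -0.18 (SE 0.06, adjusted p = 0.0668) and -0.17 (SE 0.06, adjusted p = 0.0694), and ATR, with -0.15 (SE 0.05, adjusted p = 0.0716) and -0.12 (SE 0.05, adjusted p = 0.134), missed the threshold under both treatments with the probe sets used. A second, dimmer RAD50 probe set passed among all probe sets under both, with -0.42 (SE 0.08, adjusted p = 0.00229) and -0.47 (SE 0.08, adjusted p = 0.00111), and the mean of the RAD50 probe sets was called under both treatments.

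In the Fanconi core complex, FANCL, its ubiquitin-ligase subunit, read 11.01, 10.95 and 11.02 in shControl_TMZ and 10.86, 10.67 and 10.69 in shp105_TMZ (-0.26, SE 0.06, 0.837-fold, adjusted p = 0.00928). With DMSO it read 11.02, 11.01 and 10.99 against 10.80, 10.82 and 10.91 (-0.16, SE 0.06, adjusted p = 0.0912). The groups did not overlap under either treatment. FANCC, another core subunit, read 6.71, 6.74 and 6.77 in shControl_TMZ and 6.92, 7.00 and 7.05 in shp105_TMZ (0.25, SE 0.06, 1.19-fold, adjusted p = 0.00737). With DMSO its groups overlapped, at 6.68, 6.71 and 6.79 against 6.78, 6.84 and 6.92 (0.12, SE 0.06, adjusted p = 0.177). The treatments were not shown to differ for either gene (FANCL -0.10, adjusted p = 0.896, and FANCC 0.13, adjusted p = 0.841). Of the 3 FANCC probe sets 2 were positive with TMZ, and a dim one had 0.35 with DMSO (adjusted p = 0.0346 among all probe sets). FANCI had -0.14 (adjusted p = 0.139) and -0.02 (adjusted p = 0.864), and a dimmer FANCI probe set had -0.21 with DMSO (adjusted p = 0.0437 among all probe sets), and RAD18 -0.12 (adjusted p = 0.265) and -0.10 (adjusted p = 0.334).

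EME1 was the single junction-processing member with a call. It read 9.78, 9.73 and 9.72 in shControl_DMSO and 10.04, 9.99 and 9.94 in shp105_DMSO (0.24, SE 0.06, 1.18-fold, adjusted p = 0.00802). With TMZ it read 9.92, 9.98 and 10.01 against 10.07, 10.10 and 10.22 (0.16, SE 0.06, adjusted p = 0.0618), again without overlap. Its second, dimmer probe set had -0.08 under each treatment. The 11 members not yet named in the line comparisons, ATM, TOPBP1, BRIP1, FANCB, FANCE, FANCF, FANCG, FANCM, GEN1, MUS81 and RMI1, had values from -0.18 to 0.13 with DMSO (smallest adjusted p = 0.201, TOPBP1) and from -0.21 (FANCG) to 0.21 (FANCE) with TMZ (smallest adjusted p = 0.116, FANCE). A second, dimmer BRIP1 probe set had -0.33 with DMSO (SE 0.08, adjusted p = 0.0173 among all probe sets), and the mean of the BRIP1 probe sets was called lower with DMSO (-0.20, adjusted p = 0.0208). BLM had a line difference of 0.04 with DMSO (95% interval -0.07 to 0.15) and had 0.12 (0.01 to 0.23, adjusted p = 0.136) with TMZ.

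Scaling moved the DMSO split. With median centring and with quantile normalization 3 members were higher and 6 lower, FANCC joining and BRCA1 leaving, while the split over all genes went from 1650 higher and 2287 lower to 2125 and 1769 with median centring. With a spike-in covariate 0 members were called with DMSO. The differences then stood at -0.44 for PALB2, -0.43 for RAD51C, -0.33 for RAD51AP1, -0.25 for CHEK2, -0.25 for BRCA1 and 0.30 for EME1, while those of RAD51D (0.12), NBN (-0.04) and BARD1 (0.015) were nearer to 0 than without it. With TMZ PALB2 (-0.46, adjusted p = 0.0333) and RAD51C (-0.44, adjusted p = 0.0289) were the 2 left.

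Averaged over both treatments, also a contrast added after the single differences had been seen, 10 members were lower, beside 16.7% of all genes, and 3 higher, beside 13.4%. The lower members were RAD51C (-0.36, SE 0.04, adjusted p = 1.19e-05), PALB2 (-0.36, SE 0.04, adjusted p = 1.80e-05), RAD51AP1 (-0.37, SE 0.04, adjusted p = 2.60e-05), BARD1, CHEK2, FANCL, NBN, BRCA1, RAD50 and ATR. The higher ones were RAD51D (0.34, SE 0.06, adjusted p = 0.000604), EME1 (0.20, SE 0.04, adjusted p = 0.00180) and FANCC (0.19, SE 0.04, adjusted p = 0.00358). These 13 members stayed called whichever array was left out. With the probe sets of a gene averaged, EME1 (0.06, adjusted p = 0.330), NBN (-0.0041, adjusted p = 0.966) and ATR (-0.09, adjusted p = 0.0861) were lost and BRIP1 was gained (-0.16, adjusted p = 0.00662), and ATR was also lost with median centring (-0.11, adjusted p = 0.0570). With a spike-in covariate the 1 call was RAD51C (-0.44, adjusted p = 0.0484), while PALB2 had -0.45 (adjusted p = 0.0528), RAD51AP1 -0.33 (0.203), FANCL -0.30 (0.265), RAD51D 0.12 (0.796) and BARD1 -0.06 (0.864).

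**Figure D5:**
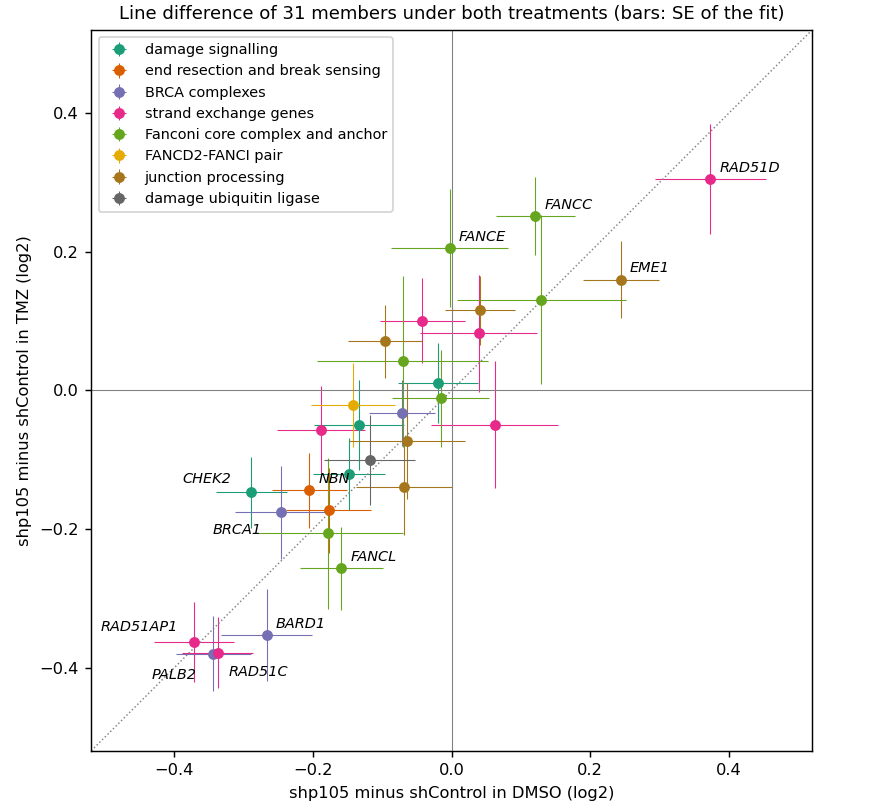
Line difference, shp105 minus shControl (log2), of the 31 measured members with DMSO (horizontal) and with TMZ (vertical), coloured by role, with bars for the SE of the fit and a dotted line of equality. PALB2, RAD51C, RAD51AP1 and BARD1 lie lowest on the vertical axis, RAD51D lies highest on both axes, and 25 of the 31 points have the same sign on both axes.

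Across the members the line differences under both treatments correlated with an r of 0.88, with 25 of 31 of the same sign. Over all genes r was 0.90, with 70.5% of the same sign. The mean log2 level of the 31 members ran from 8.39 to 8.43 on the shControl_DMSO arrays, from 8.48 to 8.50 on shControl_TMZ, from 8.29 to 8.34 on shp105_DMSO and from 8.41 to 8.46 on shp105_TMZ. The mean of 30 mitosis genes ran from 10.30 to 10.33, 10.46 to 10.49, 10.21 to 10.24 and 10.32 to 10.38 in the same order, and that of 31 DNA replication genes from 9.53 to 9.59, 9.56 to 9.61, 9.42 to 9.46 and 9.51 to 9.56. In all 3 lists the shp105_DMSO arrays were the lowest, without overlap with another group. The shControl_TMZ arrays were the highest for the members and the mitosis genes, also without overlap, while the replication genes overlapped between the treatments in shControl cells. Their part in the members' differences was not tested.

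Of 48 further genes of these pathways, 45 were measured; ATRIP and CENPS were among those not analysed here. With TMZ 0 were called in shControl cells (median 0.05), beside 0.253% of all genes higher and 0.116% lower. In shp105 cells 1 was higher, beside 0.647% of all genes, and 0 lower, beside 0.217% (median 0.07). The higher gene was EXO1, the nuclease that trims broken ends. It read 8.14, 8.20 and 8.24 with DMSO and 8.44, 8.64 and 8.54 with TMZ (0.34, SE 0.07, adjusted p = 0.0485). Between the lines with DMSO, 13 of the 45 were lower, beside 11.6% of all genes, and 4 higher, beside 8.34% (median -0.08). Those with the smallest p were UBE2T, the ubiquitin-conjugating enzyme of the Fanconi pathway (-0.35, SE 0.05), ERCC4, the nuclease that unhooks crosslinks (-0.50, SE 0.09), SFR1, a strand exchange cofactor (-0.39, SE 0.07), and BRCC3, a deubiquitinase bound to BRCA1 (-0.39, SE 0.08). With TMZ 8 of the 45 were lower, beside 11% of all genes, and 5 higher, beside 10.1% (median -0.03). Among the called genes, subunits of the single-strand binding complex went opposite ways, RPA2 with -0.38 (SE 0.06) and RPA1 with 0.36 (SE 0.06). ERCC4 (-0.48, SE 0.09) and BRCC3 (-0.45, SE 0.08) were again lower. The highest adjusted p of these 8 values was 0.00548.

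For the other lists only counts and medians are given. They are to be read beside the shares of all genes called, which are given with the members above for each comparison. Of 31 DNA replication genes TMZ raised 1 in shControl cells (median 0.04) and 2 in shp105 cells (median 0.09), and 0 fell. Of 30 mitosis genes it raised 1 (median 0.15) and 2 (median 0.12), and 0 fell. Of 17 measured p53 target genes it raised 10 (median 0.42) and 11 (median 0.40), and 0 fell. Between the lines with DMSO 12 replication genes were lower and 2 higher (median -0.13), 9 mitosis genes lower and 2 higher (median -0.10), and 5 p53 targets lower and 3 higher (median -0.09). With TMZ the counts were 8 lower and 1 higher (median -0.04), 12 and 1 (median -0.12), and 5 and 2 (median -0.015). In the TMZ response averaged over both lines 11 of the 30 mitosis genes were higher (median 0.13), 4 of 31 replication genes (median 0.03), 15 of 17 p53 targets (median 0.37) and 2 of 45 further pathway genes (median 0.06), and 0 genes of these 4 lists were lower.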

How the data were processed

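RNA of 12 cultures was measured on Affymetrix expression arrays, 3 per group. The deposited values are log2 levels per probe set, made with RMA and Affymetrix Power Tools per the submitters' processing notes, which give no versions; further steps, filters and a genome build are not given in those sources. Of 54675 probe sets, 41097 had exactly 1 gene symbol, 1801 several and 11777 none. The highest-mean one stood for each of 19775 genes, with no filter on dim genes. Array medians over genes ran from 6.29 to 6.37, and arrays of a group correlated at 0.997 to 0.998. The number of arrays limits the precision.

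One limma fit (lmFit and eBayes, 2-sided) of 4 group means over all arrays gave 5 comparisons and 2 averaged ones added after the data were seen. R 4.3.3 with limma 3.58.1 was used, and Python 3.11.15 with matplotlib 3.10.9, numpy 2.4.6 and pandas 2.3.3 for sequences and plots. The fit was tested on simulated data. NFKB1 is given first; members are given by role, per array for the called ones (at most 6 by smallest p per comparison, averaged ones included), and up to 4 called further pathway genes per comparison. RMI1 is given per array because it alone had an unadjusted p under 0.05, and FANCG in part, both chosen after their values were seen. The members and lists were chosen with earlier results of these data known. Alternatives were other gene summaries, filters, normalizations, fits, thresholds and each array left out. Same-numbered arrays of different groups deviated with correlations from -0.14 to 0.12 over 18 pairs, 2 of them over 0.1, so the numbers were not taken as pairs.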

Additional observations from a re-analysis of the deposited data

How the results depend on the processing

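Over 23 alternatives (22 for the averaged contrasts), directions of called members held except for BARD1 with DMSO, 0.015 (adjusted p = 0.984) with the spike-in covariate, and NBN with DMSO, 0.0053 (adjusted p = 0.977) with all probe sets of a gene averaged; the cause was not tested. Members called higher with TMZ in shControl cells (1) were 4 without genes below the median level (27 members tested), 2 with quantile normalization, 3 with trended and robust eBayes, and 0 with each probe set on its own, with only the compared groups, with the spike-in covariate and at an adjusted p under 0.01. In shp105 cells (3) they were 5 with the mean of probe sets, 7 without dim genes, 7 with trended eBayes, and 0 with only the compared groups and with the spike-in covariate. Between the lines with DMSO the higher members (2) were 1 with the mean of probe sets and 0 with the spike-in covariate, and the lower ones (7) were 11 without dim genes, 12 with trended eBayes, 0 with the spike-in covariate and 4 at 0.01. With TMZ the higher ones (2) were 1 with the mean of probe sets, 4 without dim genes, 0 with the spike-in covariate and 1 at 0.01, and the lower ones (5) were 10 without dim genes, 8 with trended eBayes and 2 with the spike-in covariate. For the averaged TMZ response the higher members (8) were 5 with each probe set on its own, 13 without dim genes, 0 with the spike-in covariate and 2 at 0.01, and the lower ones (0) were 2 without dim genes and 2 with trended eBayes. For the averaged line difference the spike-in covariate left 0 higher (3) and 1 lower (10). The counts over all genes moved with these settings too, so the members' counts are to be read beside those given at the end.

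With the replicate number as a replicate block, 0 members were called higher with TMZ in shControl cells and 5 in the averaged response, and no other count moved by over 1.5 times.

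Leaving out each array in turn gave 0 to 1 higher and 0 to 0 lower with TMZ in shControl cells, 1 to 4 and 0 to 0 in shp105 cells, 2 to 2 higher and 4 to 9 lower between the lines with DMSO, 1 to 2 and 5 to 6 with TMZ, 0 to 0 in either direction for the difference of responses, 4 to 8 and 0 to 0 for the averaged response, and 3 to 3 and 10 to 12 for the averaged line difference.

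The difference of responses had 0 members called under all alternatives. Among the genes kept without dim genes 8 were called, and over all genes 12 were called with trended eBayes. With 3 arrays a group, the SE of a member's difference was 0.05 to 0.12, and the smallest called TMZ difference in 1 line was 0.29.

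Over all genes, called with TMZ in shControl cells, in shp105 cells and in the averaged response (73, 171 and 665) were 291, 904 and 1743 without dim genes and 358, 937 and 1643 with trended eBayes. Without dim genes only genes at or above the median level were tested, so those counts come from fewer genes than the others. Each probe set on its own gave 37, 67 and 341, the replicate block 30, 84 and 349, and the spike-in covariate 0, 13 and 4. Averaged probe sets gave 45 and 371 in the first and last, array weights 149 in shControl cells (and fewer by over 1.5 times in shp105 cells), and only the compared groups 19 and 2 in the single lines. Leaving out 1 array took them as low as 16, 49 and 215. Between the lines, 3937 genes with DMSO, 4166 with TMZ and, averaged, 5959 became 523, 1045 and 854 with the spike-in covariate. With trended eBayes they became 4714, 4995 and 6613, and without dim genes 4176, 4332 and 5628 of the fewer genes tested. At an adjusted p under 0.01 they were 2439, 2566 and 4195. These counts hold both directions.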
